A study of Mus musculus with 394 samples.

Results

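The total RNA of dissected ventral tegmental area (VTA) and substantia nigra pars compacta (SNc), sequenced before any immunoprecipitation, was compared in 3 VTA Input and 3 SNc Input full-length libraries. They were selected by their labels for region, fraction and library type from 18 full-length libraries, in a series of 394 samples. All 6 came from DAT IRES-Cre/wt;RiboTag+/- mice of 10–14 mo (Cre+), in which Cre is driven from the dopamine transporter locus and switches on an HA tag on the ribosomal protein eL22 in dopamine (DA) neurons. No drug was given. The Input is 5% of the cleared tissue lysate, so it holds mainly cytoplasmic RNA of neurons, glia and vessels alike, and the tag does not select any of it. By the study's methods, cortex, hippocampus and any hypothalamus or white matter lying below the midbrain were removed first. The substantia nigra pars reticulata (SNr) was then taken off along a curve short of the SNc, so its dorsal part could stay with the SNc tissue. The VTA was separated last. The labels do not name the mice, so the p-values below measure the spread between these libraries.

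The VTA and SNc hold the midbrain DA neurons, which make dopamine from tyrosine with tyrosine hydroxylase and DOPA decarboxylase, load it into vesicles with VMAT2 and take it back with the dopamine transporter. VTA DA neurons lie near the midline and project mainly to the ventral striatum and cortex, and SNc DA neurons lie laterally and project mainly to the dorsal striatum. DA neurons share these nuclei with GABA and glutamate neurons, and their neighbours include the midline Edinger-Westphal and raphe nuclei, the red nucleus, the interpeduncular nucleus, the mammillary region, the SNr and, in front and above, the thalamus. A dissection by hand can take in any of these.

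The 6 libraries held 3059148 to 15762443 counts, with 3059148, 15630392 and 13489974 in the VTA Inputs and 15762443, 6179362 and 10787267 in the SNc Inputs. Mitochondrially encoded genes took 26.1% to 28.9% of the counts in every library. On the first principal component of the 500 most variable genes, which held 49.1% of their variance, the SNc Inputs lay at −16.5, −17.1 and −14.3 and the VTA Inputs at 31.7, 9.48 and 6.62. VTA Input replicate 1, the shallowest library, therefore stood apart from the other two of its region. Without it 863 genes were called, 837 of them among the 1151 described next. Levels are given as CPM, a gene's counts scaled to a common library total, and fold changes as VTA over SNc on the log2 scale. P-values came from the quasi-likelihood test of edgeR and were adjusted by Benjamini-Hochberg. Standard errors (SE) were derived from that test, as the size of the log2 fold change over the square root of its F statistic. They are approximate where counts are few. A gene was called at an adjusted p under 0.05.

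VTA and SNc tissue differed in 1151 of 15292 genes tested (7.53%). Of these, 447 were higher in VTA (2.92% of the genes tested) and 704 were lower (4.6%). Differences were mostly small, with a median size of 0.47 on the log2 scale among called genes, while 224 of them differed at least 2-fold and 77 at least 4-fold. The ranges of the regions did not overlap for 3416 genes (22.3%), 1065 of them called. Without SNc Input replicate 1, 660 genes were called (233 higher and 427 lower), 611 of which were among the 1151. In tissue, fewer cells of a type and less RNA per cell cannot be told apart.

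**Figure D1:**
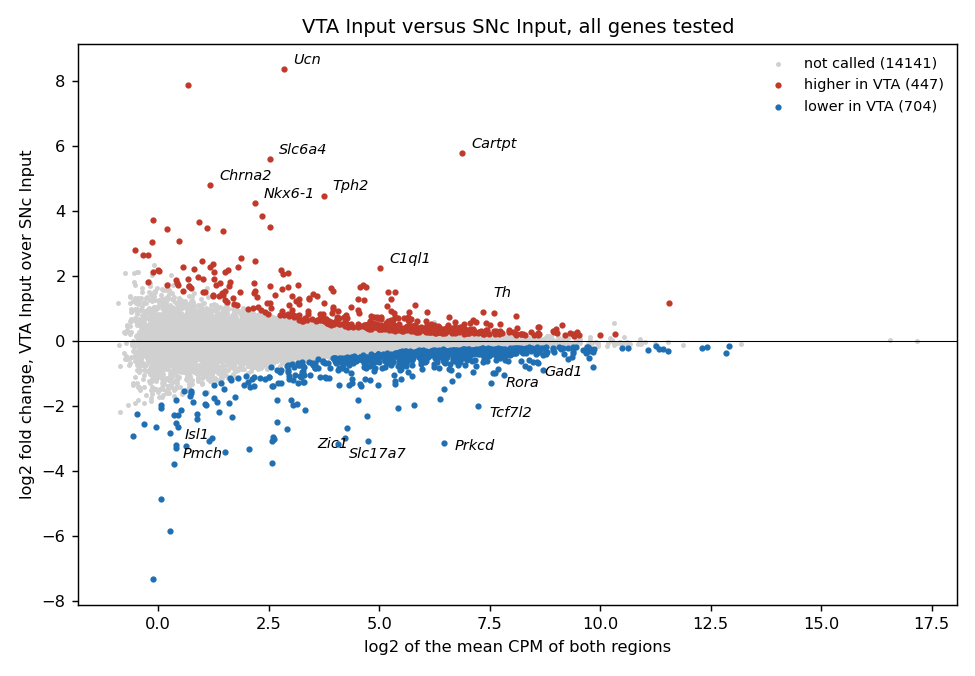
Each point is 1 of 15292 genes, with the log2 of its mean CPM over both regions on the horizontal axis and its log2 fold change of VTA Input over SNc Input on the vertical axis. The 447 genes called higher in VTA are red, the 704 called lower are blue and the rest are grey. *Ucn* and *Cartpt* lie far above zero, and *Prkcd*, *Zic1* and *Slc17a7* about 3 units below it.

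The smallest p belonged to *Cartpt*, which encodes the neuropeptide precursor CART at positions 99898489 to 99901091 of chromosome 13 (GRCm38). It was at 231, 273 and 186 CPM in the VTA Inputs and at 3.81, 4.37 and 4.26 CPM in the SNc Inputs. Every VTA library lay far above every SNc library, with a log2 fold change of 5.79 (SE 0.14, adjusted p = 2.69e-25 from edgeR), or 55.5-fold. *Ucn*, on chromosome 5 from 31138063 to 31138829, encodes urocortin, a peptide that Edinger-Westphal neurons make together with CART. Its counts were 46, 221 and 185 in the VTA Inputs (15, 14.1 and 13.7 CPM) and 0, 1 and 0 in the SNc Inputs. With a single read in all SNc libraries, the pooled ratio of 459.7 has a 95% counting interval from 82.1 to 18198 (exact), and the fitted log2 fold change of 8.37 (SE 0.57, adjusted p = 2.49e-12) depends on the prior count.

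*Cartpt*, *Ucn* and *Th*, whose product tyrosine hydroxylase starts dopamine synthesis, are known for promoters that carry a cAMP response element. The 150 bases before the RefSeq start of each gene are shown because these 3 genes stand for the peptide and the DA part of the VTA difference, and they were chosen after their values were seen. All are on the minus strand of GRCm38.p6, from RefSeq, written 5′ to 3′ with the element in capitals. The *Cartpt* stretch is chr13:99900684-99900833, that of *Ucn* chr5:31138896-31139045 and that of *Th* chr7:142899996-142900145.
Cartpt: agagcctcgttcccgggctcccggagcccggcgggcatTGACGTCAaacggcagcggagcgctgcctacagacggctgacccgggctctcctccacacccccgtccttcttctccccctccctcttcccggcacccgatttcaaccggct
Ucn: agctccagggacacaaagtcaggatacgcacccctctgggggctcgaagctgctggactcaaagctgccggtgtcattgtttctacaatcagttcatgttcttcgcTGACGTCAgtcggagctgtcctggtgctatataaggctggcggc
Th: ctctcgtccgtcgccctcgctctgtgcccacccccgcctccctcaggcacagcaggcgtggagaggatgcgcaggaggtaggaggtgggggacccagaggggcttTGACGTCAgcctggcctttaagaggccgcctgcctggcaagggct
The element TGACGTCA reads the same on both strands. It begins 112 bases before the RefSeq start in *Cartpt*, 44 in *Ucn* and 45 in *Th*. The gene spans given here for *Cartpt* and *Th* come from GENCODE and take in transcripts that begin farther upstream, so these 2 stretches lie within them. In the 250 bases before the start, it was found in 14 of 315 called genes higher in VTA with a promoter in the table (4.44%), in 15 of 516 lower in VTA (2.91%) and in 339 of 10977 genes tested (3.09%). Among the 12 leading VTA genes described next it was found in 2 of the 8 with a promoter there (*C1ql1*, *Cbln1*, *Ret* and *Calb2* had none). These 2 are *Cartpt* and *Th*, named above as known carriers of the element, so their share cannot show an enrichment. Among the 12 leading SNc genes it was found in 0 of 11 (*Camk2a* had none).

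The 12 leading genes higher in VTA, those with the smallest p among called genes of at least median level, held DA neuron genes, peptide and serotonin genes and synaptic organizers. *C1ql1* and *C1ql2* encode secreted C1q-like proteins that organize synapses. *C1ql1* was at 65.4, 53.1 and 43.4 CPM in VTA and at 7.99, 10 and 14.6 CPM in SNc (log2 fold change 2.24, SE 0.16), and *C1ql2* at 37.9, 46.6 and 34.1 CPM against 10.5, 12.9 and 14.4 CPM (1.68, SE 0.15). *Cbln1*, the gene of another organizer of the same family, cerebellin 1, was at 51, 52.9 and 60.6 CPM against 20, 16.8 and 19.1 CPM (1.53, SE 0.12). For these 3 genes the regions did not overlap. *Tacr3*, which encodes the neurokinin receptor NK3, had a log2 fold change of 1.67 (SE 0.14), the transcription factor gene *Ebf3* one of 1.31 (SE 0.12), and *Vwa5b1* one of 1.75 (SE 0.16). *Calb2*, which encodes calretinin, rose from 132, 115 and 155 CPM in SNc to 277, 225 and 261 CPM in VTA (0.87, SE 0.08).

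**Figure D2:**
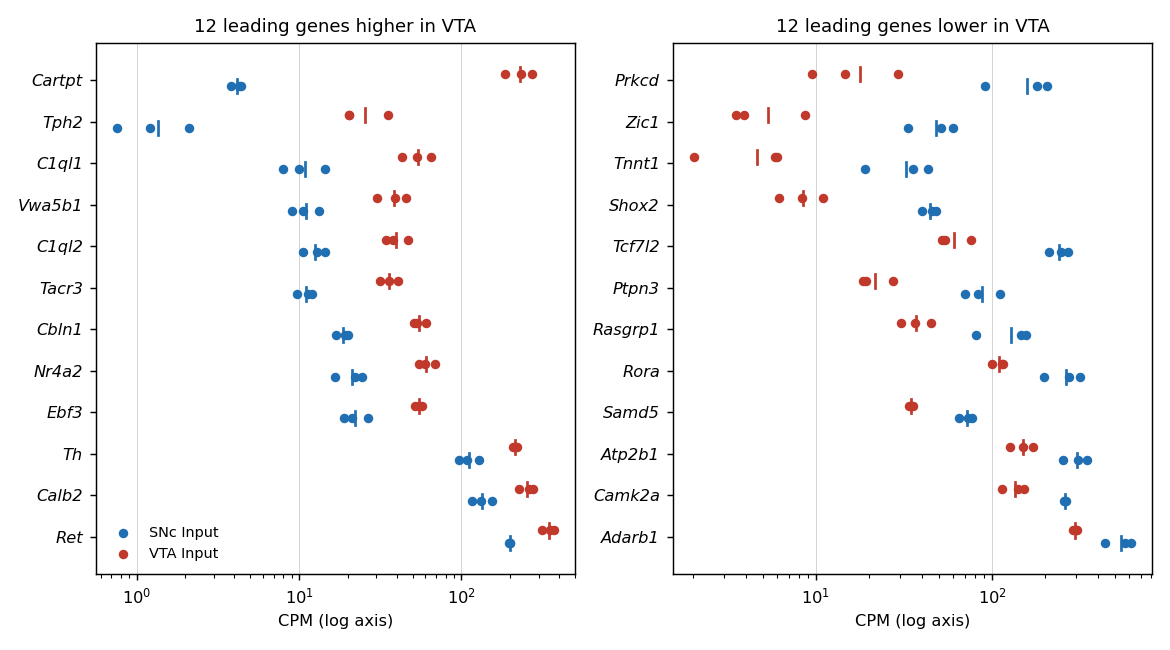
CPM on a log axis in each of the 3 VTA Inputs (red) and 3 SNc Inputs (blue) for the 12 leading genes per direction, with a tick at each mean. The regions do not overlap for any of the 24 genes, and the gap is widest for *Cartpt*.

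DA neuron genes were higher in the VTA Inputs as a group. Of 20 genes of the dopaminergic core, 17 were called higher, none was called lower and all 20 had a positive log2 fold change, with a median of 0.82 against 0.00 over all genes tested. *Th*, on chromosome 7 from 142892752 to 142931128, was at 215, 220 and 206 CPM in VTA and at 109, 97.3 and 128 CPM in SNc. Its mean was 214 ± 6.78 CPM against 111 ± 15.6 CPM (SD, n = 3 each), a log2 fold change of 0.91 (SE 0.07, adjusted p = 1.02e-10 from edgeR). *Ddc*, which encodes DOPA decarboxylase, was at 168, 189 and 159 CPM against 102, 103 and 118 CPM (0.66, SE 0.08). *Slc18a2*, the VMAT2 gene, was at 121, 133 and 127 CPM against 75.7, 85.4 and 92.2 CPM (0.58, SE 0.08).

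The dopamine transporter gene *Slc6a3* differed less. It was at 220, 226 and 202 CPM in VTA and at 163, 165 and 182 CPM in SNc (log2 fold change 0.32, SE 0.07, adjusted p = 0.00127 from edgeR), and with the 3 SNr Inputs in the same fit it did not pass (adjusted p = 0.179). Per kb of exon, mean levels in the VTA were 90.8 CPM for *Aldh1a1*, 90.4 for *Th*, 62.5 for *Slc6a3* and 51.0 for *Ret*, and in the SNc 66.1, 47.1, 49.1 and 29.3. *Aldh1a1* and *Th* in the VTA, and *Th* and *Slc6a3* in the SNc, differed by less than the spread between libraries.

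Transcription factors that specify DA neurons showed some of the larger differences of the list. *Nr4a2*, the Nurr1 gene, was at 68.6, 54.6 and 59.4 CPM in VTA and at 16.7, 24.4 and 22.2 CPM in SNc (log2 fold change 1.52, SE 0.12). *Foxa1* was at 22.6, 23.5 and 21.3 CPM against 5.71, 10 and 7.32 CPM (1.64, SE 0.18). *Foxa2* (2.12, SE 0.27), *Lmx1a* (2.18, SE 0.32) and *En1* (0.87, SE 0.11) were also called. *Ret*, which encodes the receptor for GDNF family ligands, was at 369, 353 and 314 CPM against 195, 198 and 200 CPM (0.77, SE 0.06). The 3 members that did not pass were the D2 receptor gene *Drd2* (0.30, SE 0.10, adjusted p = 0.0754 from edgeR), *Pitx3* (0.89, SE 0.37) and the GIRK2 gene *Kcnj6* (0.07, SE 0.10).

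Most markers of the ventral-tier DA neurons of the SNc were not called in whole tissue. Of 11 such genes, 2 were lower in VTA, 1 was higher and 8 did not pass (median log2 fold change 0.05). *Sox6*, a transcription factor of that tier, was at 29.4, 35.3 and 33.4 CPM in VTA and at 31.2, 35.1 and 35.2 CPM in SNc (−0.01, SE 0.11). *Aldh1a1*, which encodes retinaldehyde dehydrogenase 1, was the member that was higher in VTA, at 434, 496 and 414 CPM against 311, 318 and 349 CPM (0.44, SE 0.06, adjusted p = 7.55e-06 from edgeR). The members lower in VTA were *Grin2c*, an NMDA receptor subunit gene (−0.81, SE 0.13), and *Atp2a3*, which encodes the calcium pump SERCA3 (−0.75, SE 0.22). *Atp2a3* did not pass with DESeq2's Wald test or without SNc Input replicate 1 or 2 or any 1 of the VTA Inputs. The study drew *Atp2a3* from its SNr IPs as a gene not described earlier as a marker of these neurons. Its place in the list therefore comes from this series. *Anxa1* was low in all libraries, at 3.6, 4.09 and 5.11 CPM against 2.28, 3.24 and 1.3 CPM (1.04, SE 0.35, adjusted p = 0.061).

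Of the 10 VTA and dorsal-tier markers tested, 6 were higher in VTA and 4 did not pass (median 0.71). *Slc17a6*, which encodes the vesicular glutamate transporter VGLUT2, was at 259, 260 and 251 CPM in VTA and at 196, 156 and 160 CPM in SNc (0.55, SE 0.07, adjusted p = 1.39e-06 from edgeR). *Adcyap1*, the PACAP gene, was at 62.8, 35.9 and 52 CPM against 19.3, 22.7 and 24.7 CPM (1.07, SE 0.15). *Cck*, the cholecystokinin gene, was at 30.1, 31 and 28.5 CPM against 22.1, 26.9 and 17.3 CPM (0.45, SE 0.14, adjusted p = 0.0377) and did not pass under 8 of 14 alternatives. *Calb1* (0.26, SE 0.11, adjusted p = 0.146) and *Otx2* (−0.01, SE 0.28) did not pass. *Vip* was below the filter, with counts of 1, 47 and 41 in VTA and 2, 2 and 0 in SNc.

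Genes of serotonin neurons were found in the VTA tissue. *Tph2*, which encodes the enzyme that starts serotonin synthesis in neurons, was at 20.3, 20.4 and 35.5 CPM in VTA and at 0.761, 2.1 and 1.21 CPM in SNc (log2 fold change 4.48, SE 0.32, adjusted p = 3.66e-12 from edgeR). The serotonin transporter gene *Slc6a4* was at 6.86, 11.5 and 15.3 CPM against 0.0634, 0.485 and 0.371 CPM (5.60, SE 0.46). With 8 reads in all SNc Inputs, the pooled ratio of *Slc6a4* was 51.9 (95% exact counting interval 26.1 to 121). Both genes were highest in VTA Input replicate 3. Of the 6 serotonergic genes tested, *Htr1a*, the 5-HT1A receptor gene (0.98, SE 0.17), and *Lmx1b* (0.97, SE 0.16), which DA neurons also express, were the others called higher. *Gata3*, a transcription factor of serotonin and midbrain GABA neurons, was called lower (−0.73, SE 0.18; no list member was lower with DESeq2's Wald test or without SNc Input replicate 1 or VTA Input replicate 3), and *Slc22a3* did not pass. *Fev*, which defines serotonin neurons, was below the filter.

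Other regional transcription factors marked the VTA tissue as well. *Nkx6-1*, a ventral tegmental homeobox gene, was at 11.8, 9.6 and 4.82 CPM in VTA and at 0.571, 0.324 and 0.185 CPM in SNc (4.24, SE 0.48). *Pou4f1*, the Brn3a gene of red nucleus and habenula neurons, was at 9.81, 13.8 and 10.8 CPM against 2.6, 1.94 and 3.62 CPM (2.08, SE 0.26), and *Pax7* was at 4.9, 4.48 and 5.71 CPM against 0.381, 0.647 and 0.464 CPM (3.41, SE 0.46). Of 14 red nucleus and tegmental genes tested, these 3 were higher, *Zic1* was lower and 10 did not pass (median 0.02). Among 10 hypothalamic and mammillary genes tested, 5 were higher in VTA and 1 lower (median 1.44). They include *Otp* (3.48, SE 0.51) and *Sim1* (2.57, SE 0.40), both transcription factor genes. *Pmch*, which encodes the melanin-concentrating hormone precursor of the lateral hypothalamus, went the other way, with 5 reads in the VTA Inputs and 73 in the SNc Inputs, a ratio of 14.4 (95% exact counting interval 5.88 to 45.5). With DESeq2's Wald test, or without SNc Input replicate 1, 3 members of this list were higher.

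Cholinergic and oculomotor genes were near zero in both regions. Of 10 listed genes 5 were tested, with summed levels of 7.85 to 21.7 CPM in VTA and 10.0 to 13.5 CPM in SNc over the whole list. The choline transporter gene *Slc5a7* was higher in VTA at 1.63, 8.13 and 4.23 CPM against 1.14, 1.78 and 1.11 CPM (2.18, SE 0.41), and *Isl1* was lower at 0, 0.384 and 0.148 CPM against 2.47, 3.4 and 1.48 CPM (−3.19, SE 0.63). The choline acetyltransferase gene *Chat* did not pass (1.09, SE 0.44, adjusted p = 0.137 from edgeR).

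Nicotinic receptor subunit genes, many of which DA neurons express, were higher in VTA for 5 of 9 members and lower for none (median 0.76). *Chrna6* was at 60.1, 65.3 and 67.4 CPM in VTA and at 40.1, 28.5 and 42 CPM in SNc (0.76, SE 0.10). *Chrnb3* (0.76, SE 0.12) and *Chrna5* (1.47, SE 0.29) also passed. *Chrna2*, a subunit gene of the interpeduncular nucleus, had 150 reads in the VTA Inputs and 5 in the SNc Inputs, a ratio of 30.5 (95% exact counting interval 12.8 to 95.3). Peptide genes were mixed, with 5 of 22 higher in VTA, 1 lower and 16 not called (median 0.05). *Scg2*, the secretogranin II gene of dense-core vesicles, was at 697, 617 and 689 CPM against 446, 473 and 467 CPM (0.50, SE 0.06). Of 24 peptide receptor genes, 4 were higher, such as the kappa opioid receptor gene *Oprk1* (1.18, SE 0.20) and the neurotensin receptor gene *Ntsr1* (0.56, SE 0.12), and the VIP receptor gene *Vipr2* was lower (−2.49, SE 0.31).

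The SNc Inputs held more RNA of thalamic neuron genes. Of the 8 genes of this list, 8 were lower in VTA (median −2.41), and 8 were lower under each of the 14 alternatives. *Tcf7l2*, which encodes a Wnt pathway transcription factor abundant in the adult thalamus, lies on chromosome 19 from 55741820 to 55933654. It was at 269, 210 and 244 CPM in SNc and at 54.3, 52.3 and 76 CPM in VTA (−1.99, SE 0.10, adjusted p = 8.19e-16 from edgeR), or 3.96-fold higher in SNc. *Prkcd*, which encodes protein kinase C delta of thalamic relay neurons, was at 180, 204 and 91.3 CPM against 14.7, 9.53 and 29.1 CPM (−3.12, SE 0.24). *Tnnt1*, a troponin gene also expressed in thalamus, was at 35.7, 43.2 and 19.1 CPM against 5.88, 2.05 and 6 CPM (−2.97, SE 0.27). In each of these 3 genes the regions were apart, and SNc Input replicate 3 was the lowest SNc library for *Prkcd* and *Tnnt1*. *Gbx2* (−3.07, SE 0.35), *Lhx9* (−2.70, SE 0.28) and *Lef1* (−2.12, SE 0.25) are transcription factor genes of the same list. *Rora*, an orphan nuclear receptor gene, was at 273, 314 and 198 CPM in SNc and at 113, 100 and 115 CPM in VTA (−1.28, SE 0.11), and *Ntng1* differed least (−0.55, SE 0.09).

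The other leading genes lower in VTA included further homeobox and zinc finger factors. *Shox2* was at 47.8, 45.6 and 40 CPM in SNc and at 6.21, 8.32 and 11 CPM in VTA (−2.30, SE 0.15). *Zic1* was at 51.6, 59.7 and 33.2 CPM against 3.92, 3.52 and 8.67 CPM (−3.07, SE 0.22). Exons of *Zic4* overlap it on the opposite strand, and since it is not stated that reads were counted by strand, reads of this pair cannot be told apart. In all, 5 of the 24 leading genes (*Ebf3*, *Shox2*, *Zic1*, *Ptpn3* and *Rora*) have such an overlap. The rest included signaling genes. *Ptpn3*, a tyrosine phosphatase gene, was at −1.97 (SE 0.15), *Rasgrp1*, which encodes a Ras activator, at −1.79 (SE 0.16), and *Atp2b1*, a plasma membrane calcium pump gene, at −1.04 (SE 0.10). *Adarb1*, which encodes the RNA editing enzyme ADAR2, was at 567, 611 and 439 CPM in SNc and at 287, 302 and 301 CPM in VTA (−0.88, SE 0.08), and *Samd5* had a log2 fold change of −1.07 (SE 0.10).

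Markers of cortical and hippocampal neurons were lower in VTA for 4 of the 7 tested and higher for *C1ql2*. *Slc17a7*, which encodes the vesicular glutamate transporter VGLUT1 of cortical and some thalamic neurons, was at 32.3, 44.7 and 14.6 CPM in SNc and at 1.63, 1.73 and 5.49 CPM in VTA (−3.16, SE 0.33). *Camk2a*, the gene of a kinase of forebrain excitatory synapses, was at 259, 261 and 257 CPM against 141, 113 and 153 CPM (−0.97, SE 0.08). *Tbr1*, *Neurod6*, *Emx1*, *Fezf2* and *Dsp* were below the filter. Of 11 striatal spiny neuron genes, 4 were lower in VTA. The summed level of this list was 275 to 280 CPM in VTA and 290 to 352 CPM in SNc, against 2072 to 2479 CPM in the SNr Inputs. With DESeq2's Wald test 1 member was lower, and without SNc Input replicate 1, VTA Input replicate 2 or VTA Input replicate 3, 2 were.

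Genes of GABA synthesis and vesicular transport were higher in SNc. Of 12 genes of the midbrain GABA list, 6 were lower in VTA and none was higher (median −0.50). *Gad1*, which encodes the GABA-synthesizing enzyme GAD67, was at 415, 388 and 486 CPM in SNc and at 238, 294 and 203 CPM in VTA (−0.83, SE 0.08, adjusted p = 6.85e-09 from edgeR), or 1.78-fold higher in SNc. *Gad2*, the GAD65 gene, was at 437, 400 and 460 CPM against 275, 320 and 252 CPM (−0.64, SE 0.07), and *Slc32a1*, the vesicular GABA transporter gene, at 124, 119 and 119 CPM against 75.8, 74 and 59.2 CPM (−0.85, SE 0.08). *Six3*, a transcription factor of SNr GABA neurons, was also lower (−1.13, SE 0.19). *Pvalb*, the parvalbumin gene of fast-spiking neurons, overlapped between regions, at 41.7, 42.1 and 45.3 CPM in SNc and 51.3, 56.5 and 40.5 CPM in VTA (0.17, SE 0.11, adjusted p = 0.399).

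Channels that support fast spiking were lower in VTA for 10 of 12 members and higher for the neurofilament gene *Nefh* (median −0.34). *Kcnc1*, the Kv3.1 potassium channel gene, was at 420, 414 and 361 CPM in SNc and at 272, 290 and 253 CPM in VTA (−0.58, SE 0.07). The sodium channel gene *Scn1a* (−0.34, SE 0.07) and the potassium channel gene *Kcna2* (−0.33, SE 0.06) differed by less. With DESeq2's Wald test, or without SNc Input replicate 1, 6 members were lower, and without VTA Input replicate 3, 4.

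Glutamate and GABA receptor genes that were called were mostly lower in VTA. Of 24 glutamate receptor genes, 9 were lower in VTA and none was higher (median −0.25), with the NMDA subunit gene *Grin2b* at 409, 432 and 350 CPM in SNc and 219, 219 and 266 CPM in VTA (−0.77, SE 0.08). Of 21 GABA and glycine receptor genes, 5 were lower and 2 higher (median −0.20). *Gabrd* (−3.01, SE 0.39) and *Gabra4* (−1.31, SE 0.14) encode subunits of extrasynaptic GABA-A receptors, and *Gabbr2* encodes a GABA-B subunit (−0.67, SE 0.07). The subunit gene *Gabrq* was higher in VTA, at 21.6, 22.2 and 25.6 CPM against 6.85, 6.8 and 9.92 CPM (1.56, SE 0.17). Monoamine receptor genes were split, with 3 of 15 higher, such as the adrenoceptor gene *Adra2a* (0.48, SE 0.14), and 4 lower, such as the serotonin receptor genes *Htr2c* (−0.47, SE 0.08), *Htr1b* (−0.81, SE 0.18) and *Htr7* (−0.59, SE 0.14). Of 11 perineuronal matrix genes, 4 were lower, such as the link protein genes *Hapln1* (−1.10, SE 0.18) and *Hapln4* (−0.55, SE 0.10), and *Spp1*, the osteopontin gene, was higher (0.74, SE 0.13). Without SNc Input replicate 1, 2 perineuronal genes were lower and 1 monoamine receptor gene was higher, which was also so for the latter without SNc Input replicate 2, VTA Input replicate 1 or VTA Input replicate 2 and with DESeq2's Wald test.

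**Figure D3:**
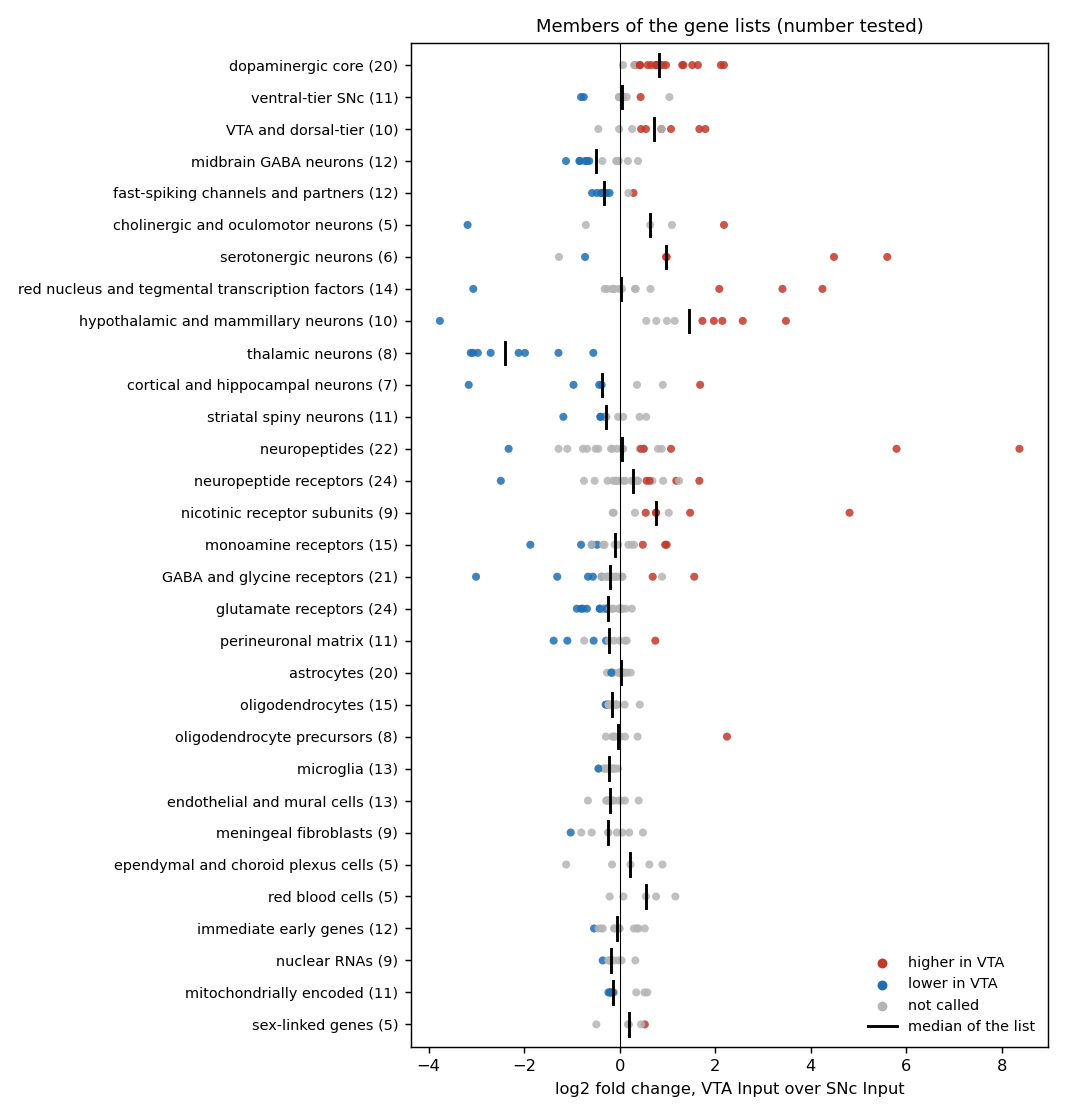
Log2 fold changes of VTA Input over SNc Input for the tested members of 31 gene lists, with the number tested beside each name. Red points are called higher in VTA, blue points lower and grey points neither, and the black bar is the list's median. The 8 thalamic genes all lie on the SNc side and the 20 dopaminergic genes on the VTA side. Medians of the glial lists lie between −0.22 and 0.02.

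Differences in glial and vascular genes were small, but several lists leaned lower in VTA. Log2 fold changes were negative for 13 of 13 microglial genes (median −0.22) and 13 of 15 oligodendrocyte genes (−0.16). They were also negative for 10 of 13 endothelial and mural genes (−0.20), against 7555 of all 15292 genes tested. Astrocyte genes did not lean this way, with 14 of 20 positive (median 0.02). Of 20 astrocyte genes, 2 were lower in VTA, the glutamate transporter gene *Slc1a2* (−0.16, SE 0.04) and *Atp1b2* (−0.18, SE 0.05), and none was higher. With total counts, or without SNc Input replicate 1 or VTA Input replicate 1, 0 astrocyte genes were lower, and without VTA Input replicate 3, 1 was. With total counts, or without SNc Input replicate 2, SNc Input replicate 3 or VTA Input replicate 1, 1 was higher. Of 15 oligodendrocyte genes, 3 were lower, such as the myelin gene *Mobp*, at 930, 1048 and 857 CPM in SNc and 784, 783 and 786 CPM in VTA (−0.30, SE 0.06), and none was higher. Without SNc Input replicate 1, SNc Input replicate 2 or VTA Input replicate 3, 1 oligodendrocyte gene was lower. *Csf1r*, the receptor gene that microglia need for survival, was the called member of 13 microglial genes (−0.45, SE 0.09). Shares called in either direction were 10% of astrocyte, 20% of oligodendrocyte and 7.69% of microglial genes, against 7.53% of all genes tested. Summed over the list, microglial genes were at 252 to 293 CPM in VTA and 324 to 342 CPM in SNc. Of 8 oligodendrocyte precursor genes, *C1ql1*, which those cells share with neurons, was higher and the other 7 did not pass. None of 13 endothelial and mural genes, 5 ependymal and choroid plexus genes and 5 red blood cell genes tested was called by edgeR or by DESeq2, with 2 members of each list at an unadjusted p under 0.05 in edgeR. Of 9 meningeal fibroblast genes, *Col1a2* was lower (−1.03, SE 0.26), but not without SNc Input replicate 1, SNc Input replicate 2 or VTA Input replicate 3.

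Of 12 immediate early genes tested, *Egr1* was lower in VTA (−0.54, SE 0.13), but not without VTA Input replicate 2. Of 9 nuclear RNAs *Malat1* was lower, at 8641, 8224 and 7830 CPM in SNc and 6848, 6351 and 6479 CPM in VTA (−0.36, SE 0.04, adjusted p = 5.67e-07 from edgeR). The called shares of these lists were 8.33% and 11.1%, against 7.53% of all genes tested. Of 11 mitochondrially encoded genes, 5 were lower, with *mt-Nd4* at −0.24 (SE 0.05) and *mt-Cytb* at −0.20 (SE 0.04). With total counts, or without SNc Input replicate 1 or VTA Input replicate 3, 2 of them were. The methods state mice of both sexes without giving the sex of a library. The Y-linked *Ddx3y* was at 29.7, 34.5 and 44.4 CPM in VTA and 23.7, 16.8 and 35 CPM in SNc, overlapping ranges that were nevertheless called (0.52, SE 0.15, adjusted p = 0.0285), while the other 4 sex-linked genes did not pass. *Ddx3y* was not called with DESeq2's Wald test (adjusted p = 0.598) or without SNc Input replicate 1, SNc Input replicate 2 or VTA Input replicate 3.

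The SNr Inputs and the RiboTag IPs of the same library series, 3 libraries each, show where these genes stand outside the comparison. They are given as levels with no test. The IPs target the tagged ribosomes of DA neurons but also held RNA of other cells. Of the 447 genes higher in VTA, 250 were lower in the SNr Input mean than in both regions (55.9%, against 42.9% of genes tested). Of the 704 genes lower in VTA, 197 were higher in the SNr Input mean than in both regions. That share was below the 36.6% of all genes tested. The Input values that chose the genes of both sets also set the levels the SNr mean is held against. These shares are therefore a description, and whether SNr RNA contributed to the SNc Inputs was not tested. *Gad1* averaged 585 CPM and *Camk2a* 373 CPM in the SNr Inputs, above their SNc levels. The thalamic genes *Tcf7l2* and *Prkcd* were lower there, at 25.3 and 15.9 CPM.

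In the IPs, DA neuron genes were far above their Input levels in both regions. *Th* averaged 3614 CPM in VTA IPs and 1774 CPM in SNc IPs, *Ret* 2948 and 1665 CPM, *Nr4a2* 335 and 106 CPM, and *Slc6a3* 2702 and 2948 CPM. *Cartpt*, at 27.2 and 15.6 CPM, and *C1ql1*, at 4.15 and 5.61 CPM, were below their VTA Input levels in the VTA IPs. *Tph2* averaged 8.49 CPM in VTA IPs and 10.6 CPM in SNc IPs, the latter above its SNc Input mean of 1.36 CPM. *Prkcd* averaged 274 CPM and *Zic1* 41.2 CPM in the SNc IPs, and 11.4 and 0.235 CPM in the VTA IPs. The SNc IPs also held more RNA of GABA neuron and myelin genes. *Gad1* averaged 566 CPM and *Mobp* 300 CPM there, against 57.5 and 64.1 CPM in the VTA IPs. SNc IP levels therefore cannot be assigned to DA neurons alone. Of the genes higher in VTA, 74.3% had a higher mean CPM in VTA IPs than in VTA Inputs and 84.1% in SNc IPs than in SNc Inputs. Of those lower in VTA, 36.9% and 24.4% did, and of all genes tested 60.8% and 62.4%. The Input values that chose these genes enter both sides, so the shares are a description.

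**Figure D4:**
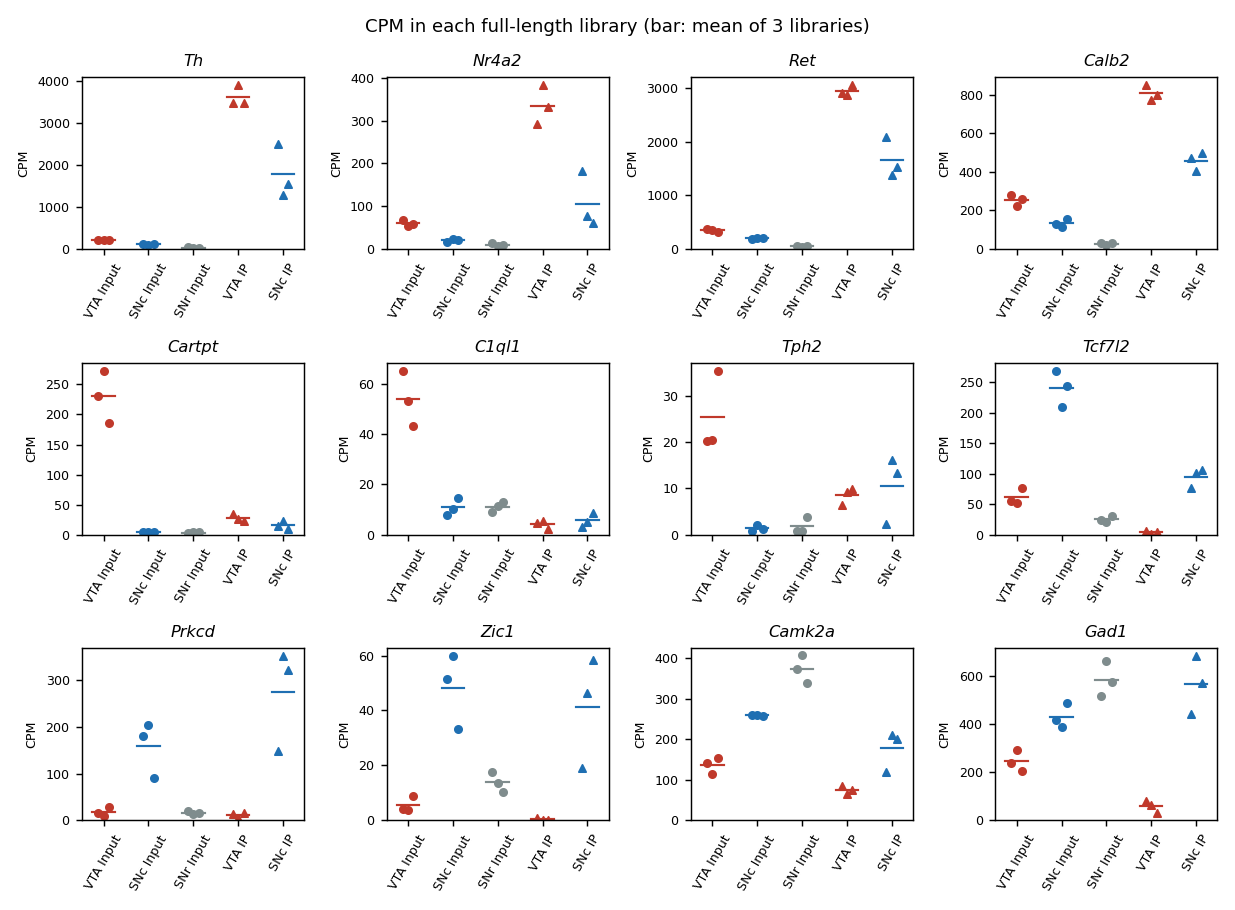
CPM of 12 genes in each full-length library of VTA, SNc and SNr Input (circles) and VTA and SNc IP (triangles), with a bar at the mean of 3 libraries and axes that start at 0. *Th*, *Nr4a2*, *Ret* and *Calb2* are highest in the IPs, *Cartpt*, *C1ql1* and *Tph2* in the VTA Inputs, *Prkcd* in the SNc IPs, and *Camk2a* and *Gad1* have their highest mean in the SNr Inputs.

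The same regions were also measured with 3' UMI libraries of Input RNA, 10 per region, from 4 Cre+ and 6 Cre− samples each. The Cre− mice carry no Cre and differ from the mice of the full-length libraries, and whether the Cre+ mice are shared with them is not given. Depth was far lower, at 3606 to 105954 UMIs in VTA and 30953 to 380689 UMIs in SNc, and 3 VTA libraries held under 20000. With genotype as a covariate, 21 of 11860 genes were called (0.177%), 8 higher in VTA (0.0675%) and 13 lower (0.11%), and 828 had an unadjusted p under 0.05. Of the 21, 18 were tested in the full-length libraries, 18 had the same sign there and 16 were called there in the same direction. Without SNc Cre− replicate 4, 8 genes were lower, without VTA Cre− replicate 4 or 6, 20 and 22 were, and without VTA Cre− replicate 3, 5 were higher.

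*Cartpt* had 988 UMIs in the VTA and 45 in the SNc libraries, and a log2 fold change of 5.03 (SE 0.25) that was 5.02 in Cre− and 5.02 in Cre+ mice alone. *Ucn* had 58 UMIs against 2, a ratio of 50.3 (95% exact counting interval 13.3 to 425). *Th* (0.91, SE 0.22, adjusted p = 0.0269 from edgeR), *Cbln1* (1.92, SE 0.38) and *C1ql1* (1.49, SE 0.34) were the other genes called higher with both methods. The remaining 3 calls rested on 1 VTA library each, which held 82.8% of the UMIs of *Stxbp5*, 82.8% of those of *Cd6* and all 79 UMIs of *Gm38099*. Of the 13 lower genes, *Gm25612* had 93.5% of its UMIs in SNc Cre+ replicate 1 and *Ttr* 55.8% in SNc Cre− replicate 6. On the SNc side, *Tcf7l2* (−1.73, SE 0.24), *Tnnt1* (−3.74, SE 0.43), *Prkcd* (−2.59, SE 0.44), *Shox2* (−2.09, SE 0.37), *Zic1* (−2.62, SE 0.55), *Rora* (−0.97, SE 0.20) and *Atp2b1* (−0.88, SE 0.20) were called in both. VTA Input Cre− replicate 4 stood apart, with 52 UMIs of *Cartpt* and 27 of *Tcf7l2*, against 153 and 16 in Cre− replicate 6, a library of like depth. *Tph2*, with 5 UMIs in VTA and 1 in SNc, was below the filter, at a ratio of 8.67 (95% exact counting interval 0.97 to 410).

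The UMI libraries did not repeat every difference. *Slc17a7* was at 0.04 (SE 0.63), *Gabrq* at −0.46 (SE 0.83) and *Oprk1* at −0.18 (SE 0.60), with 7, 3 and 9 UMIs in VTA, and none passed. Nor did every DA gene repeat. *Ddc* was at 0.17 (SE 0.24), *Slc6a3* at −0.02 (SE 0.23), *Slc18a2* at −0.16 (SE 0.27) and *Aldh1a1* at −0.17 (SE 0.22), none of which passed, and 10 of the 16 dopaminergic core genes tested were positive (median 0.21). Of the 8 thalamic genes none was positive (median −1.67). The ventral-tier list had 0 of 8 tested genes positive (median −0.70), with *Sox6* at −1.84 (SE 0.69), against a full-length median of 0.05. The striatal list had 9 of 10 positive (median 0.45), against a full-length median of −0.30. In the UMI libraries 0 genes of either list were called by edgeR or DESeq2, with 2 ventral-tier and 3 striatal genes at an unadjusted p under 0.05 in edgeR. Scaling left a median of −0.11 over the 10914 genes tested with both methods. Relative to that median, 288 of 359 genes higher in VTA (80.2%) and 479 of 617 genes lower in VTA (77.6%) had the same sign in the UMI libraries, against 58.3% of all genes, and in Cre− mice alone, relative to their own median, 70.8% and 67.3% did, against 54.2%. Without that centring the shares were 68.0% of genes higher and 83.5% of genes lower in VTA, against 57.0% of all genes. In Cre− mice alone they were 51.4% and 79.5%, against 53.4%, so there the genes higher in VTA did not exceed the background.

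**Figure D5:**
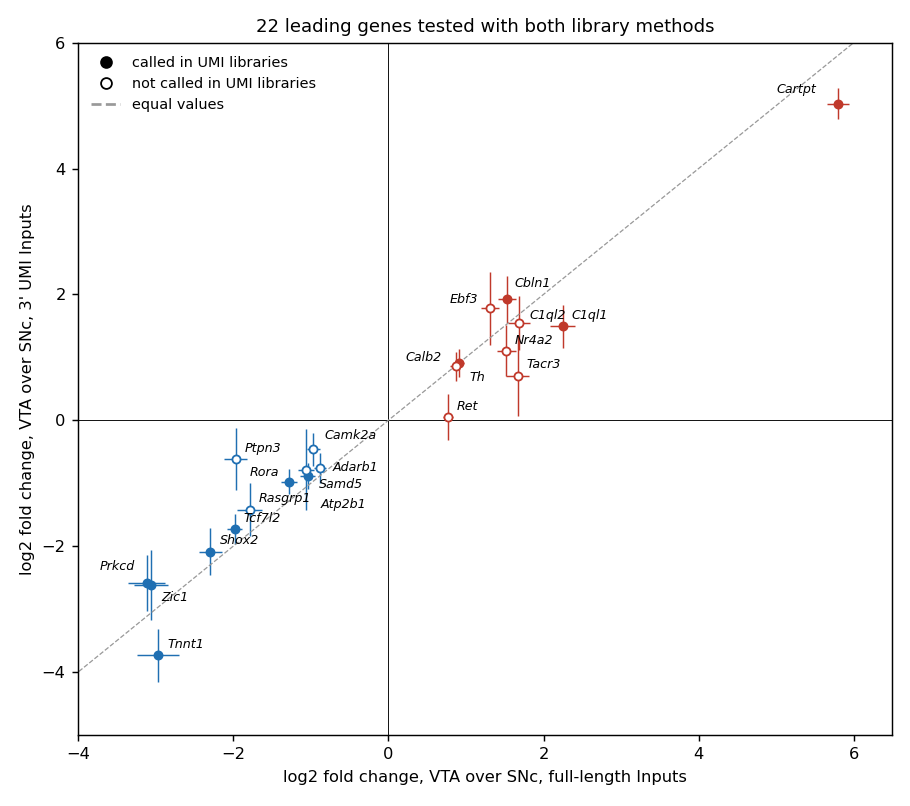
Log2 fold changes of VTA over SNc in the full-length Inputs (horizontal) and the 3' UMI Inputs (vertical) for the 22 leading genes tested with both methods, with bars of 1 SE. Filled points passed in the UMI libraries and the dashed line marks equal values. *Cartpt* is at 5.79 and 5.03 and *Tnnt1* at −2.97 and −3.74, while *Ret*, at 0.77 and 0.05, lies near zero in the UMI libraries.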

How the data were processed

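Full-length Input libraries were made by the study from rRNA-depleted total RNA, and the deposited values are raw counts per gene. Per the methods, the authors trimmed the reads and discarded those of nuclear-encoded rRNA (Bowtie2). Mitochondrial rRNA stayed in the counts. The rest were placed on GRCm38.p6 by STAR 2.6.7a, and featureCounts 1.6 assigned reads with 1 position to exons. Whether strand was used in counting is not given in the sources used here. The 3' UMI libraries were deposited as UMI counts per gene. Samples were grouped by their labels.

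The 6 full-length Inputs were filtered with filterByExpr, scaled by TMM and fitted with edgeR 4.0.16 (glmQLFit and glmQLFTest, R 4.3.3), with Benjamini-Hochberg adjustment over 15292 genes. The study's own test was DESeq2's Wald test, used here as an alternative (DESeq2 1.42.0). The 20 UMI Inputs (genes with at least 10 UMIs) were fitted with TMMwsp scaling and genotype as a covariate. Both fits were run on simulated counts with the same spread between libraries for every gene, which cannot show how the calls hold in these libraries. Intervals of count ratios are exact at 95% and, like all intervals here, cover counting error only. Depth was 3059148 to 15762443 counts and 3606 to 380689 UMIs per library, so the UMI fit is less precise. Alternatives changed the scaling, filter, test, samples and mitochondrial genes, and left out each library.

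The libraries, lists and genes were chosen with earlier results of these data known. Genes were named by p, taking in each direction the first 12 called genes at or over the median level (16.3 CPM in the higher region) and leaving out predicted, Rik and mitochondrial genes. Named too were 15 set markers and up to 4 members of each list, by p. *Adra2a*, *Drd2*, *En1*, *Foxa2*, *Gabrd*, *Gata3*, *Gbx2*, *Kcnj6*, *Lef1*, *Lhx9*, *Lmx1a*, *Nefh*, *Ntng1*, *Pitx3* and *Slc22a3* fall outside this rule and were chosen after their values were seen. Gene positions come from GENCODE vM21, which holds 55227 of the 55487 gene IDs. Some genes the rule names are not reported here.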

Additional observations from a re-analysis of the deposited data

Results flagged for a closer look

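Total UMIs of the 6 Cre− SNc Input libraries held 1 value far from the others, 380689 in replicate 6 against 30953 to 151145 in the rest. Of 4 groups of UMI libraries examined in this way it was the one with such a value, and chance gives about 1 in 20.

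The regional difference of *Stxbp5*, which encodes tomosyn, a syntaxin-binding protein, differed between Cre+ and Cre− mice in the UMI libraries (genotype by region interaction −4.22 on the log2 scale, SE 0.79, adjusted p = 0.00117 from edgeR), a test chosen after seeing the data. It was the called gene among 11860 tested, with 623 at an unadjusted p under 0.05. The VTA over SNc log2 fold change was 4.09 in Cre− and −0.07 in Cre+ mice, and 357 of the 431 UMIs lay in VTA Cre− replicate 3. In the full-length libraries it was 0.05 (adjusted p = 0.791).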

How the results depend on the processing

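Of 137 named genes tested, 97 were called, 97 kept their direction under all 14 full-length alternatives and 80 also stayed called under each of them. Leaving out 1 library gave 660 to 1364 called genes, 233 to 517 of them higher in VTA and 427 to 847 lower, and DESeq2's Wald test gave 828, with 276 higher; why was not tested. Total counts without scaling moved the share of calls that were higher in VTA to 45.9%, against 38.8%. Of 40 named genes not called, 6 changed sign. With total counts *Sox6* was at 0.00735 and *Otx2* at 0.00489, and with 1 library left out *Sox6* ranged from −0.090 to 0.023, *Otx2* from −0.26 to 0.23, *Foxj1* from −0.10 to 0.67, *Eif2s3y* from −0.22 to 1.02, *Xist* from −1.40 to 0.11 and *Hba-a2* from −0.55 to 0.15.

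In the UMI libraries DESeq2's Wald test called 12 genes (4 higher and 8 lower), Cre− mice alone gave 11 (4 lower), Cre+ mice alone 4 higher, and without the libraries under 20000 UMIs, an alternative chosen after seeing the data, 13 were higher. Leaving out 1 library gave 17 to 31 calls, 5 to 11 higher and 8 to 22 lower; why was not tested. No paired analysis was possible because the labels carry no replicate number and the numbers used here follow accession order. Depth limits low genes and the UMI libraries most.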
